A study of Mus musculus with 54 samples.

Results

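The 7 genes described here were grouped as genes of cell cycle arrest and p53 stress: Cdkn2a, Cdkn2b, Cdkn1a, Cdkn1b, Phlda3, Gdf15 and Dglucy. They were taken by gene symbol from 17393 genes measured in sorted cells of the fetal mouse intestine, and were selected on their RPKM in an experiment with the Wnt secretion inhibitor LGK974. The values in that experiment are therefore given as a description, without a test, while the levels in untreated cells were tested where possible. The data comprised 54 libraries in 20 groups, with 15072991 to 26658039 reads behind the gene values of each. LGK974 blocks porcupine, the enzyme that attaches the lipid without which Wnt ligands are not secreted.

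In the inhibitor experiment, pregnant dams carrying Top.CFP fetuses were dosed 2 times a day between E12.5 and E16.5 with LGK974 or its vehicle, and EpCAM+ epithelium was sorted at E16.5 out of the proximal, mid and distal intestine. There were 3 LGK974 libraries and 1 vehicle library per region. Untreated C57Bl/6J epithelium of the same stage and regions (3 libraries each) completed the controls, so that each region had 4 control libraries, of which only the vehicle library shared the strain and the dosing of the treated fetuses. The mesenchymal sorts were untreated C57Bl/6J cells of E16.5, negative for EpCAM, CD31 and CD45: PDGFRA-HIGH, PDGFRA-MED with a medium level of CD29, and CD29-HIGH with a medium level of PDGFRA (3 libraries per region each). Untreated C57Bl/6J epithelium of E13.5 was available for the distal and the proximal region (3 libraries each). The study describes the libraries of a group as biological replicates, while the labels do not name dams or litters, and the p-values cover the spread among these libraries. These are bulk samples, in which fewer cells of a type and less RNA per cell cannot be told apart.

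Cells leave the division cycle when inhibitors bind cyclin-dependent kinases (CDKs). The INK4 proteins, among them the Cdkn2a product p16Ink4a and the Cdkn2b product p15Ink4b, bind CDK4 and CDK6, the partners of D-type cyclins. The CIP/KIP proteins, among them p21 (Cdkn1a) and p27 (Cdkn1b), bind a wider range of cyclin and CDK complexes. The transcription factor p53, held in check by the ubiquitin ligase Mdm2, activates Cdkn1a and many other genes after stress, and the alternative Cdkn2a product p19Arf binds Mdm2 and so stabilises p53. Phlda3, a pleckstrin homology domain protein that represses Akt, and Gdf15, a secreted factor of the TGF-beta family, are known p53 targets. Dglucy encodes D-glutamate cyclase, a mitochondrial enzyme that turns D-glutamate into 5-oxoproline. Wnt signals keep cells of the intestinal epithelium dividing.

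In RefSeq annotation (GRCm38.p6, the same build as the authors' mm10), Cdkn2a lay on the minus strand of chromosome 4 (chr4:89274473-89294619), 11669 bases from Cdkn2b (chr4:89306289-89311032). Cdkn1a was at chr17:29090979-29100722, Cdkn1b at chr6:134920401-134925525, Phlda3 at chr1:135766085-135769134, Gdf15 at chr8:70629393-70632470 and Dglucy at chr12:100779057-100872610. Cdkn2b overlaps the annotated gene Gm12610, and Dglucy overlaps Gm8482. RefSeq gave promoter windows, from 250 bases before to 50 bases after a start, for all 7 genes, with 10 windows in total. They were searched on both strands for exact matches to the p53 consensus half-site, a palindromic pattern of 10 bases. The half-site was found in 8.36% of the 32851 windows of all genes, and a pair of half-sites at most 13 bases apart in 0.0731% of them. Of the 10 windows of the 7 genes, 1 held the half-site, the upstream start of Cdkn1a, and it held a pair. This window is printed because p21 is the textbook p53 target, and its downstream window is printed beside it. Exact matches to the half-site are in capitals.

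Cdkn1a upstream start, plus strand, chr17:29090729-29091028: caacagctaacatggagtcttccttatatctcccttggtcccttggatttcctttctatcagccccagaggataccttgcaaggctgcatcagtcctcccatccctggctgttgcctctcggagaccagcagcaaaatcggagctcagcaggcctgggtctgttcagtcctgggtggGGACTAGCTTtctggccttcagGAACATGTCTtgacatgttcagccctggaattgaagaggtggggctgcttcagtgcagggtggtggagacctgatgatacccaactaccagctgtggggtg
Cdkn1a downstream start, plus strand, chr17:29093519-29093818: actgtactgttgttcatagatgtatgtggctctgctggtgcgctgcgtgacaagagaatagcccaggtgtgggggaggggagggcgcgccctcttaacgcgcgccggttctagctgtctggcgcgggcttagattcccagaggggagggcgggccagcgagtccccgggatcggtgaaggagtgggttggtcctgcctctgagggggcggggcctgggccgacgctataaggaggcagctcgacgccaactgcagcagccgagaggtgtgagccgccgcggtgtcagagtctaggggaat

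The exact matches began 73 and 51 bases before the upstream start, and the downstream window held none. The stretch directly after the match at 51 bases differs from the pattern at its first base alone, so it was not marked. The capitals therefore need not mark the pair that p53 binds. Among the 26 other p53 target genes examined below, 19 had windows in RefSeq, and 7 of these had a half-site in at least 1 window, none with a pair. Over all 27025 genes with a window, 2582 had a half-site. A match of letters does not show that p53 binds there, and a window without a match says nothing on sites elsewhere in the gene. The Cdkn2a gene has separate starts for its alternative products. Both windows are printed because reads were counted for the gene as a whole, so the values below cannot separate p16Ink4a from p19Arf.

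Cdkn2a upstream start (p19Arf), minus strand, chr4:89294570-89294869: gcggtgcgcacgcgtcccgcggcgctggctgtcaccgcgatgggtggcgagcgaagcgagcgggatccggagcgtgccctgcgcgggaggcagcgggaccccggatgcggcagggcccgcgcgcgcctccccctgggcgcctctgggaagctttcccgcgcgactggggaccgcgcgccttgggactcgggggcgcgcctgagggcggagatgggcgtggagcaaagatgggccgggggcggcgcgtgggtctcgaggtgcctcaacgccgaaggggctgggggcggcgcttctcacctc
Cdkn2a downstream start (p16Ink4a), minus strand, chr4:89282143-89282442: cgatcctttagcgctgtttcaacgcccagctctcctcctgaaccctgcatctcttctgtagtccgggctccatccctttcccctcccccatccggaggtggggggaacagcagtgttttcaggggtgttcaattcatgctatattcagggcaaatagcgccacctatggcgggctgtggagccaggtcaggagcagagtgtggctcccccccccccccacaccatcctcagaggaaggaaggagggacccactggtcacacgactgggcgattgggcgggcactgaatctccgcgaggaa

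The upstream Cdkn2a window was 77% G and C, against 60.3% for the downstream window, and neither held the half-site.

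With LGK974, 6 of the 7 genes were higher in the proximal epithelium and Cdkn1b was lower, and in the mid and distal epithelium the genes divided. Values are RPKM, that is, reads scaled for gene length and library size. In the proximal region the LGK974 and control libraries did not overlap for any of the 7 genes, while over all genes tested 17.2% lay wholly above and 14.7% wholly below the controls. In the mid region 4 genes lay above (22.6% of all genes) and 2 below (22.4%), and in the distal region 3 lay above (27.2%) and 3 below (22.5%). As these values chose the genes, nothing is read from the counts.

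**Figure D1:**
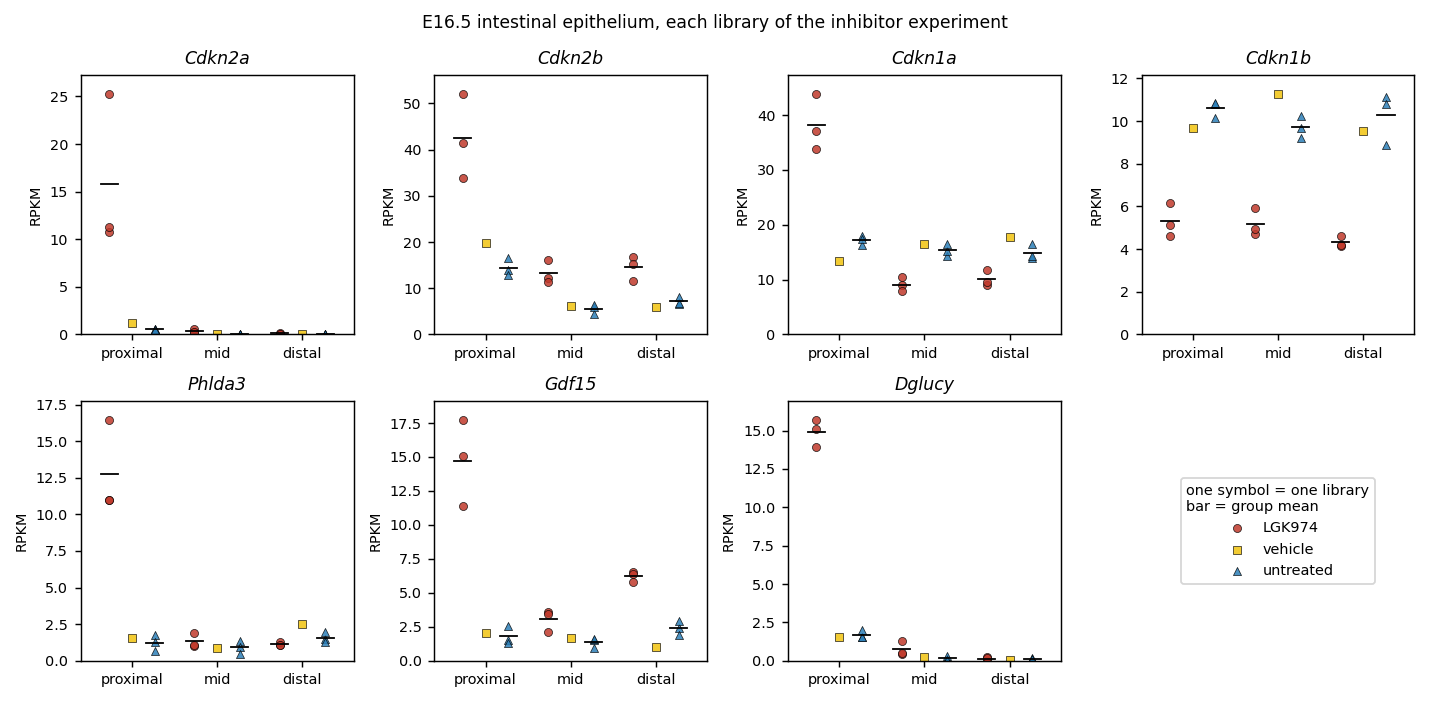
RPKM of the 7 genes (y axes, linear from 0) in each library of the inhibitor experiment by region, with LGK974, vehicle and untreated libraries as separate symbols and a bar at the mean of groups of 3. Cdkn2a reached 10.7 to 25.3 RPKM in the proximal LGK974 libraries and stayed at or below 1.19 RPKM in every other library, while Cdkn1b was lower with LGK974 in all 3 regions.

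Cdkn2a was close to silent outside the proximal LGK974 libraries. Its RPKM was 25.3, 10.7 and 11.3 with LGK974, against 1.19 with vehicle and 0.578, 0.626 and 0.519 untreated in the proximal epithelium. The LGK974 mean was 21.7 times the mean of the 4 controls, and 13.3 times the vehicle value. In the mid epithelium it was 0.26, 0.564 and 0.265 with LGK974, while all 4 controls had 0 reads. This is at least 11.7-fold higher than a floor of 3 reads over the control group, on 23 reads in the LGK974 libraries. In the distal epithelium only 7 reads were found over the LGK974 libraries and 2 over the controls, too few for a fold. Proximal LGK974 libraries thus held 887 of the Cdkn2a reads of this experiment, and the proximal controls 72.

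Cdkn2b, the neighbour of Cdkn2a, was higher with LGK974 in every region. In the proximal epithelium it had 52.1, 33.9 and 41.5 RPKM with LGK974, against 19.9 with vehicle and 14, 12.9 and 16.5 untreated. It had, in the mid epithelium, 16.1, 12.2 and 11.4 RPKM with LGK974, against 6.18 with vehicle and 4.33, 5.98 and 6.27 untreated. Distal values were similar, at 16.8, 11.5 and 15.3 RPKM with LGK974, against 5.9 with vehicle and 6.6, 6.87 and 8.21 untreated. The ratio of means was 2.68, 2.33 and 2.11 along the 3 regions, and the groups did not overlap in any. Mtap, a gene of methionine salvage in the same stretch of chromosome 4, ranged over 15.2 to 19.5 RPKM with LGK974, 14.9 with vehicle and 11.3 to 12.9 untreated in the proximal epithelium.

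Cdkn1a changed in opposite directions along the intestine. Proximally it had 43.9, 33.9 and 37.1 RPKM with LGK974, against 13.4 with vehicle and 16.3, 17.9 and 17.3 untreated. In the mid epithelium it had 8.99, 7.88 and 10.4 RPKM with LGK974, against 16.4 with vehicle and 14.2, 15.3 and 16.4 untreated, and in the distal epithelium 9.1, 11.8 and 9.51 RPKM with LGK974, against 17.8 with vehicle and 16.6, 14 and 14.2 untreated. The LGK974 mean was therefore 2.36 times the control mean in the proximal epithelium, and 0.582 and 0.649 times it in the mid and distal epithelium, without overlap of libraries in any region. Over the 3 regions the 12 control libraries spanned 13.4 to 17.9 RPKM, and the 9 LGK974 libraries 7.88 to 43.9 RPKM.

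Cdkn1b was lower with LGK974 in all 3 regions, by about the same ratio. Proximal values were 4.63, 6.15 and 5.11 RPKM with LGK974, against 9.66 with vehicle and 10.8, 10.1 and 10.8 untreated. Mid values were 4.7, 4.93 and 5.92 RPKM with LGK974, against 11.3 with vehicle and 9.67, 10.3 and 9.19 untreated. Distal values were 4.61, 4.14 and 4.21 RPKM with LGK974, against 9.56 with vehicle and 11.1, 10.8 and 8.9 untreated. No LGK974 library overlapped a control in any region. The LGK974 mean was 0.511, 0.513 and 0.428 times the control mean in the proximal, mid and distal epithelium. The p27 protein is largely controlled by its breakdown, through Skp2, Cks1b, Cul1 and Rbx1, none of which passed the test in any region. Cdkn1b was the only one of the 7 genes that was lower with LGK974 in the proximal epithelium.

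Phlda3 had 16.4, 11 and 11 RPKM with LGK974 in the proximal epithelium, against 1.53 with vehicle and 0.688, 1.73 and 1.31 untreated, a ratio of means of 9.72. Mid groups overlapped, with 0.977 to 1.88 RPKM with LGK974 and 0.49 to 1.38 RPKM in the controls. Distal Phlda3 was lower with LGK974, at 1.04, 1.25 and 1.06 RPKM, against 2.54 with vehicle and 1.51, 1.98 and 1.27 untreated. The distal groups were separated by a narrow gap between 1.25 and 1.27 RPKM. Phlda3 is more abundant in mesenchyme, and the summed RPKM of 6 fibroblast markers moved with it in the distal epithelium: 22.1 to 31.7 with LGK974, against 100.1 with vehicle and 73.9 to 89.4 untreated. In the proximal epithelium, where Phlda3 was higher with LGK974, the sum was 26.9 to 29.8 with LGK974 and 32.4 to 48.4 in the controls. In sorted PDGFRA-MED cells the same markers summed to between 5622 and 9451 RPKM, and their part in the distal Phlda3 level was not tested.

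Gdf15 was higher with LGK974 in every region, with the smallest ratio in the mid epithelium. It had 17.7, 11.4 and 15.1 RPKM with LGK974 in the proximal epithelium, against 2.08 with vehicle and 2.56, 1.55 and 1.34 untreated (ratio of means 7.83). Mid values were 3.58, 2.13 and 3.42 RPKM with LGK974, against 1.69 with vehicle and 0.959, 1.5 and 1.62 untreated (2.11). Distal values were 6.53, 6.35 and 5.76 RPKM with LGK974, against 0.981 with vehicle and 2.44, 2.9 and 1.91 untreated (3.02). Against the vehicle library alone the ratios were 7.09, 1.80 and 6.34 along the 3 regions, so that the proximal and distal ratios were close with this control. GDF15 signals through GFRAL and its co-receptor Ret. Gfral was not among the genes of the inhibitor table, and Ret, at 0.936 to 2.23 RPKM with LGK974 and 1.83 to 5.16 RPKM in the controls over the 3 regions, did not pass the test in any region.

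Dglucy was a proximal gene. It had 15.7, 14 and 15.1 RPKM with LGK974 in the proximal epithelium, against 1.53 with vehicle and 1.55, 1.53 and 2.02 untreated, 9.73 times the vehicle value. Mid values were 0.47, 1.27 and 0.481 RPKM with LGK974, against 0.232 with vehicle and 0.0919, 0.288 and 0.08 untreated. Distal groups overlapped, at 0.0164 to 0.234 RPKM with LGK974 and 0.0366 to 0.195 RPKM in the controls. The 3 proximal LGK974 libraries were close to one another, with an SD of 0.883 RPKM. Of the other enzymes of D-amino acids and 5-oxoproline tested, Dao (D-amino acid oxidase) passed in the distal epithelium, at 22.9, 26.6 and 23.8 RPKM with LGK974, against 5.18 with vehicle and 6.18, 6.5 and 8.56 untreated (log2 change 1.83 ± 0.13 SE, limma adjusted p = 1.6e-07), while Srr and Oplah did not pass in any region.

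**Figure D2:**
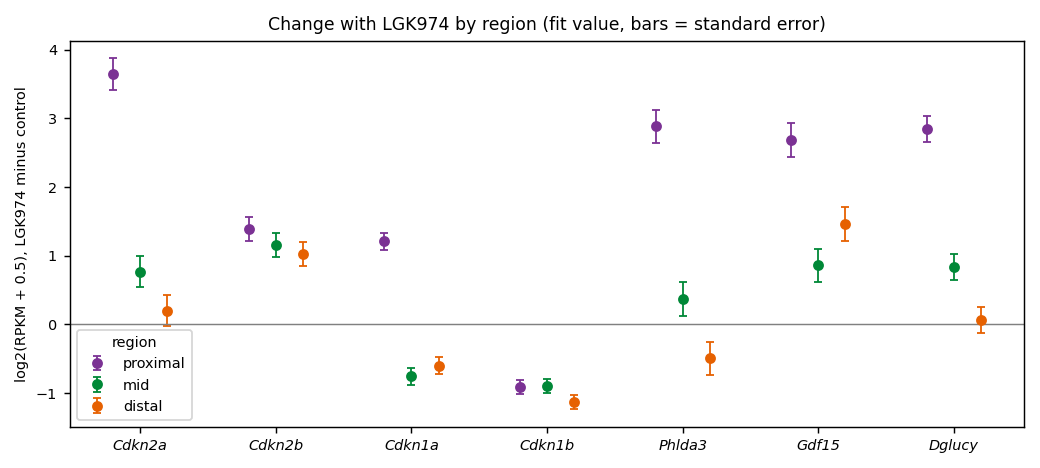
Difference in log2(RPKM + 0.5), LGK974 minus control, for the 7 genes in the proximal, mid and distal epithelium (points are fit values, bars the standard error, from 3 LGK974 and 4 control libraries per region). Cdkn1a lies at 1.21 proximally, -0.75 mid and -0.60 distally, and Phlda3 at 2.88, 0.37 and -0.49. The fit values of Cdkn2a, Cdkn2b, Cdkn1b, Gdf15 and Dglucy keep 1 direction, though Cdkn2a (0.20) and Dglucy (0.07) change little distally.

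On the scale of the fit, log2(RPKM + 0.5), on which changes of weakly expressed genes come out too small, the proximal differences were 3.65 ± 0.23 (SE) for Cdkn2a, 2.88 ± 0.24 for Phlda3, 2.84 ± 0.19 for Dglucy, 2.68 ± 0.24 for Gdf15, 1.39 ± 0.18 for Cdkn2b, 1.21 ± 0.12 for Cdkn1a and -0.91 ± 0.10 for Cdkn1b. The distal differences were 0.20 ± 0.23 for Cdkn2a, -0.49 ± 0.24 for Phlda3, 0.07 ± 0.19 for Dglucy, 1.46 ± 0.24 for Gdf15, 1.02 ± 0.18 for Cdkn2b, -0.60 ± 0.12 for Cdkn1a and -1.13 ± 0.10 for Cdkn1b. The difference between these, proximal minus distal, was 3.44 ± 0.32 for Cdkn2a, 3.38 ± 0.34 for Phlda3, 2.77 ± 0.27 for Dglucy, 1.81 ± 0.17 for Cdkn1a and 1.23 ± 0.35 for Gdf15. For Cdkn2b and Cdkn1b it was 0.37 ± 0.25 and 0.22 ± 0.14. With the vehicle libraries as the only controls, this difference was 0.36 for Gdf15, -0.17 for Cdkn2b and 0.24 for Cdkn1b, against 2.89 for Cdkn2a, 3.59 for Phlda3, 2.67 for Dglucy and 2.26 for Cdkn1a. This choice of controls was made after seeing the data, and under it the difference of Gdf15 was smaller and that of Cdkn2b turned sign. Against the vehicle library of each region alone, over the 3 regions together (3.22% of 12865 genes past the threshold), the differences were 1.40 for Cdkn2a, 1.10 for Cdkn2b, -0.05 for Cdkn1a, -0.98 for Cdkn1b, 0.72 for Phlda3, 1.80 for Gdf15 and 1.29 for Dglucy. Leaving out the proximal vehicle library removes the proximal region from this comparison, and the value was then 0.52 for Cdkn2a, 0.47 for Dglucy, -0.81 for Cdkn1a and -0.26 for Phlda3.

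The untreated and the treated proximal libraries also differed in their content of other cells. The summed RPKM of 4 pancreatic enzyme genes (Cpa1, Cela1, Prss2 and Ctrb1) was 4.81 to 10.1 with LGK974, 0.468 with vehicle and 514 to 1103 in the untreated proximal libraries. The summed RPKM of haemoglobin genes (2 of the 6 blood markers) was 5.6 to 17.7 with LGK974, 23.7 with vehicle and 134.7 to 204.8 untreated. Laptm5, another of the 6 blood markers, was also measured in this experiment. It was among the 3 genes most like Cdkn1a over its libraries (Pearson's r = 0.919 on log2 values). Cdkn1a was higher with LGK974 in the proximal epithelium, so the haemoglobin sum does not stand for all blood markers. The 6 epithelial markers (Epcam, Cdh1, Vil1, Krt8, Krt18 and Cldn7) summed to between 1899 and 2015 RPKM with LGK974, to 1810 with vehicle and to between 1708 and 1712 untreated. Against the vehicle library, in which pancreatic genes were near 0, the LGK974 mean was 13.3 times as high for Cdkn2a, 8.34 for Phlda3, 7.09 for Gdf15, 2.86 for Cdkn1a and 2.14 for Cdkn2b, and 0.549 times for Cdkn1b. The part of other cells in these proximal levels was not tested.

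Outside the 7 genes, p53 targets that passed the test in the proximal epithelium were all higher with LGK974. Of 26 other p53 target genes tested, 10 rose and 0 fell with LGK974 in the proximal epithelium, where 2.18% of 12865 genes passed the test (absolute log2 change tested against 0.5 with limma, adjusted p under 0.05). The median log2 change of the list was 0.80, against -0.01 for all genes. In the mid epithelium 0 rose and 1 fell (7.31% of all genes passed, list median 0.29), where 38.4% of the calls over all genes were higher, and 49.3% after quantile normalization, and in the distal epithelium 2 rose and 1 fell (14.3%, list median 0.28 and all genes 0.04). These lists were drawn up with earlier results of these data known, so the count is not independent evidence of a direction. With the vehicle library as the only control, 6 of the 26 rose in the proximal epithelium, and with 1 library left out at a time 8 to 12 did.

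**Figure D3:**
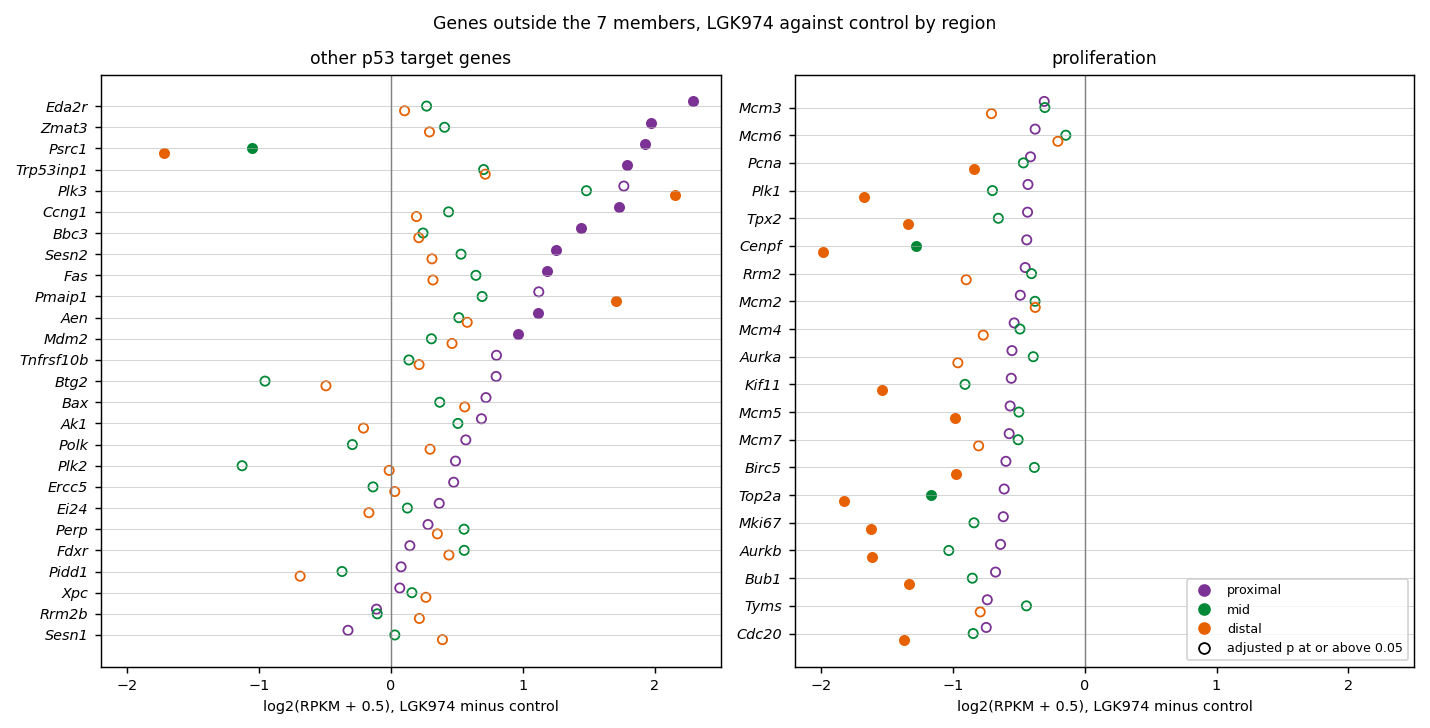
Difference in log2(RPKM + 0.5), LGK974 minus control (x axis), for 26 other p53 target genes (left) and 20 proliferation genes (right) in the proximal, mid and distal epithelium, with filled points for genes past the test. In the left panel 10 proximal points are filled, all above 0, and in the right panel 12 distal points are filled, all below 0.

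Eda2r, a receptor of the TNF receptor family, had 3.7, 2.47 and 2.1 RPKM with LGK974 in the proximal epithelium, against 0.0928 with vehicle and 0.199, 0.157 and 0.169 untreated (log2 change 2.29 ± 0.15 SE, limma adjusted p = 3.5e-07). Zmat3, an RNA-binding zinc finger protein, had 11.5, 10 and 9.58 RPKM with LGK974, against 1.8 with vehicle and 2.35, 2.24 and 2.73 untreated (1.97 ± 0.11 SE, limma adjusted p = 7.9e-08). Psrc1, a microtubule-binding protein, had 15.6, 12.1 and 11.1 RPKM with LGK974, against 2.77 with vehicle and 3.22, 3.12 and 2.93 untreated (1.92 ± 0.15 SE, limma adjusted p = 3.5e-06). For each of these genes every LGK974 library stood above every control. Trp53inp1, which promotes p53-dependent cell death, rose by a log2 change of 1.79, cyclin G1 (Ccng1) by 1.73, the cell death gene Bbc3 (Puma) by 1.44, the stress protein gene Sesn2 by 1.25, the death receptor gene Fas by 1.18, the nuclease gene Aen by 1.11 and Mdm2 by 0.97. The gene of p53 itself, Trp53, was at 20 to 24.1 RPKM with LGK974 and 21.7 to 24.5 RPKM in the proximal controls (log2 change -0.06 ± 0.08 SE) and did not pass. Of the 9 genes tested on the list of p53 and its regulators, 0 rose and 0 fell in the proximal epithelium, and Chek1 alone passed in the distal epithelium, with a log2 change of -0.97.

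Among the 10 proximal genes, 6 differed between regions when the difference itself was tested. The LGK974 change, proximal minus distal, passed for 5.21% of 12865 genes, and for 6 of the 26 p53 targets, all toward the proximal side: Psrc1 (log2 3.64 ± 0.21 SE, limma adjusted p = 1.8e-08), Eda2r (2.18 ± 0.22), Zmat3 (1.68 ± 0.15), Ccng1 (1.54 ± 0.20), Bbc3 (1.23 ± 0.15) and Sesn2 (0.94 ± 0.14, limma adjusted p = 0.045). With the vehicle libraries as the only controls 4 of the 26 passed. Psrc1, like Cdkn1a, was higher in the proximal and lower in the distal epithelium. It had 0.713, 0.94 and 1.02 RPKM with LGK974 in the mid epithelium, against 1.97 with vehicle and 2.73, 2.97 and 1.98 untreated (log2 change -1.06, limma adjusted p = 0.012), a call that was lost with a pseudocount of 1, with quantile normalization and with the vehicle library as the only control. Distal Psrc1 was at 0.685, 0.532 and 0.82 RPKM with LGK974, against 3.07 with vehicle and 3.82, 3.93 and 2.78 untreated (log2 change -1.72, limma adjusted p = 3.0e-06). Across the 21 libraries of this experiment Psrc1 was also the gene most like Cdkn1a (Pearson's r = 0.942 on log2 values), and Eda2r the gene most like Cdkn2a (0.978) and Phlda3 (0.933). Nov (0.936) and the blood marker Laptm5 (0.919) followed Psrc1 for Cdkn1a. Dglucy (0.970) and Zmat3 (0.969) followed Eda2r for Cdkn2a, and Slc27a6 (0.922) and Krt19 (0.920) followed it for Phlda3. Akr1b8, Cbr3 and Kcnn4 were most like Dglucy (0.980 to 0.974), and Lama3, Sesn2 and Pnrc1 most like Gdf15 (0.904 to 0.894). Prrg4, Foxq1 and Trp53inp1 were most like Cdkn2b (0.956 to 0.937), and Nde1, Defa3 and Defa17 most like Cdkn1b (0.950 each). These likenesses share the libraries and the treatment groups and are descriptions.

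Not all stress genes passed in the proximal epithelium. Plk3 and Pmaip1, p53 targets that also respond to other stresses, passed in the distal epithelium, with log2 changes of 2.15 and 1.70, and not in the proximal. The test of the difference between regions passed for neither gene, so their proximal and distal changes were not shown to differ. Pmaip1 (Noxa) was at 52.5, 68.3 and 56.5 RPKM with LGK974 in the proximal epithelium, against 57.4 with vehicle and 21, 19.2 and 22.1 untreated, so that the vehicle library stood with the treated ones. Of 16 tested genes of the integrated stress response, which signals amino acid shortage and protein misfolding, 0 rose and 1 fell in the proximal epithelium, 2 rose in the mid and 3 rose in the distal epithelium, where 2.18%, 7.31% and 14.3% of all genes passed. The proximal fall was lost in 6 of 7 fits without 1 library, with limma-voom and with the vehicle library as the only control. The mid count was 1 in 6 of 7 fits without 1 library and 0 with the vehicle library as the only control. Ddit3 (CHOP), its best known effector, had 115, 130 and 117 RPKM with LGK974 in the distal epithelium, against 24.3 with vehicle and 21.6, 22.3 and 13.8 untreated (log2 change 2.56 ± 0.35 SE, limma adjusted p = 0.00016). In the proximal epithelium Ddit3 had 48.2, 42.7 and 49.5 RPKM with LGK974, against 41 with vehicle and 12.2, 15.2 and 12.8 untreated, again with the vehicle value beside the treated ones. The gene that fell proximally, Nupr1, had 0.993 to 1.45 RPKM with LGK974, 1.87 with vehicle and 24.2 to 48.6 untreated, and was high in the same libraries as the pancreatic genes. On the list of 16 immediate early and heat shock genes, Zfp36 rose in the proximal epithelium (log2 change 1.60) and Zfp36 and Jun in the distal (1.80 and 1.01). Of 8 genes tested that are linked to senescence, 0 passed in the proximal epithelium, Il1a rose in the mid (2.22) and Glb1, which encodes lysosomal beta-galactosidase, in the distal epithelium (1.22).

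Genes of cell division that passed as lower with LGK974 were mostly found in the distal epithelium, where more of all genes passed too. Of 20 proliferation genes, 12 fell and 0 rose in the distal epithelium (list median log2 change -0.98), 2 fell in the mid (-0.50) and 0 in the proximal epithelium (-0.55). Over all genes, 6.9% fell in the distal, 4.5% in the mid and 0.995% in the proximal epithelium. Mki67, the proliferation marker, had 28.3, 28.3 and 31.5 RPKM with LGK974 in the distal epithelium, against 113 with vehicle and 85, 87.7 and 82.3 untreated (-1.62 ± 0.15 SE, limma adjusted p = 1.3e-05). In the proximal epithelium Mki67 had 48.1, 54.7 and 51.1 RPKM with LGK974, against 91.8 with vehicle and 85.3, 71.2 and 69.2 untreated, which did not overlap but did not pass (-0.62 ± 0.15 SE). The difference between regions passed for 1 of the 20, Cenpf (1.55 ± 0.25 SE, limma adjusted p = 0.0098), so for the other genes the proximal and the distal change were not shown to differ. This count was 0 with the vehicle libraries as the only controls, and 3 without the proximal vehicle library. With 1 library left out at a time, 9 to 14 of the 20 fell distally and 1 to 4 in the mid epithelium, and with the vehicle library as the only control 10 did.

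Some partners of the inhibitors also differed between regions. Cyclin D1 (Ccnd1), a D-type cyclin and Wnt target, had 5.98, 6.07 and 5.76 RPKM with LGK974 in the proximal epithelium, against 7.08 with vehicle and 9.67, 8.36 and 7.79 untreated, and did not pass there. Distal Ccnd1 was at 1.28, 2.32 and 1.4 RPKM with LGK974, against 16.6 with vehicle and 18.1, 18.1 and 17.9 untreated (-3.10 ± 0.19 SE, limma adjusted p = 7.8e-09), and the regions differed (2.67 ± 0.28 SE, limma adjusted p = 2.6e-05). Cyclin D2 (Ccnd2) rose proximally, at 183, 156 and 170 RPKM with LGK974, against 73.6 with vehicle and 81, 70.5 and 73 untreated (1.18 ± 0.09 SE, limma adjusted p = 0.00013), a difference from the distal epithelium of 1.39 ± 0.13 SE (limma adjusted p = 0.00014). Of 12 cyclin and CDK genes, 1 rose proximally, 2 fell in the mid and 6 fell in the distal epithelium. Over all genes, 1.19% rose proximally, 4.5% fell in the mid and 6.9% fell in the distal epithelium. The difference between regions passed for Ccnd1 and Ccnd2 alone, so the other genes of this list were not shown to differ. Of 11 genes of the Rb and E2F families, on which these kinases act, 0 passed in the proximal and mid epithelium and E2f7 (-1.33) and Rbl1 (-0.89) fell in the distal. Over all genes, 2.18%, 7.31% and 14.3% passed in the proximal, mid and distal epithelium. Of 14 Polycomb genes, 0 passed in any region, including Ezh2, Bmi1 and Cbx7, with the same shares over all genes. Polycomb proteins are known to silence the Cdkn2a and Cdkn2b locus, and their part in the levels of these genes was not tested.

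Cdkn1c (p57), the third CIP/KIP gene, had the opposite regional order to Cdkn1a. It had 839, 971 and 911 RPKM with LGK974 in the distal epithelium, against 174 with vehicle and 194, 201 and 269 untreated (log2 change 2.13 ± 0.15 SE, limma adjusted p = 7.6e-08). Mid Cdkn1c was at 616, 490 and 482 RPKM with LGK974, against 248 with vehicle and 253, 245 and 231 untreated (1.11 ± 0.15 SE, limma adjusted p = 0.0063), a call that was lost without LGK974 mid replicate 1 and with the vehicle library as the only control. Proximal Cdkn1c was at 94.9 to 142 RPKM with LGK974, against 196 with vehicle and 161, 183 and 170 untreated, which did not pass (-0.54). The difference between regions was -2.66 ± 0.21 (SE, limma adjusted p = 1.6e-06). Cdkn2d, an INK4 gene at 1.56 to 3.42 RPKM with LGK974 and 1.59 to 3.39 RPKM in the controls, did not pass in any region, and Cdkn2c was not in this table. The Wnt target genes Axin2 and Lgr5 fell in all 3 regions, by log2 changes of -1.29 and -1.49 in the proximal, -1.63 and -2.81 in the mid and -1.82 and -3.59 in the distal epithelium.

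In untreated E16.5 cells, 4 of the 6 members tested differed between epithelium and the PDGFRA-HIGH and PDGFRA-MED sorts, with 60.9% of 14732 genes past the same test. Cdkn2a was below the filter of at least 1 RPKM in 3 libraries and was not tested. Cdkn2b was an epithelial gene, with 4.53 to 17.1 RPKM in epithelium and at most 0.637 RPKM in any of the 18 libraries of the PDGFRA sorts (log2 3.93 ± 0.09 SE, limma adjusted p = 2.8e-19), a difference that was 6.86 on recovered reads with limma-voom. Cdkn1a had 14.5 to 18.7 RPKM in epithelium, against 1.33 to 2.25 RPKM in PDGFRA-HIGH and 0.23 to 0.825 RPKM in PDGFRA-MED cells (3.48 ± 0.08 SE, limma adjusted p = 7.4e-20). Cdkn1b and Phlda3 had the reverse order. Cdkn1b had 9.25 to 11.6 RPKM in epithelium, against 31.7 to 39.7 RPKM in PDGFRA-HIGH and 13.6 to 19 RPKM in PDGFRA-MED cells (-1.19 ± 0.04 SE, limma adjusted p = 4.9e-14), and Phlda3 had 0.508 to 2.06 RPKM in epithelium, against 6.31 to 10.1 RPKM in PDGFRA-HIGH and at least 9.13 RPKM in PDGFRA-MED cells (-2.48 ± 0.10 SE, limma adjusted p = 1.5e-14). Gdf15 and Dglucy did not pass as means over the mesenchyme. Epithelial markers summed to 1456 to 1781 RPKM in epithelium and to 1.61 to 31.6 RPKM in the PDGFRA sorts, and fibroblast markers to 29.9 to 93.1 RPKM in epithelium and to 3610 to 9451 RPKM in the PDGFRA sorts.

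**Figure D4:**
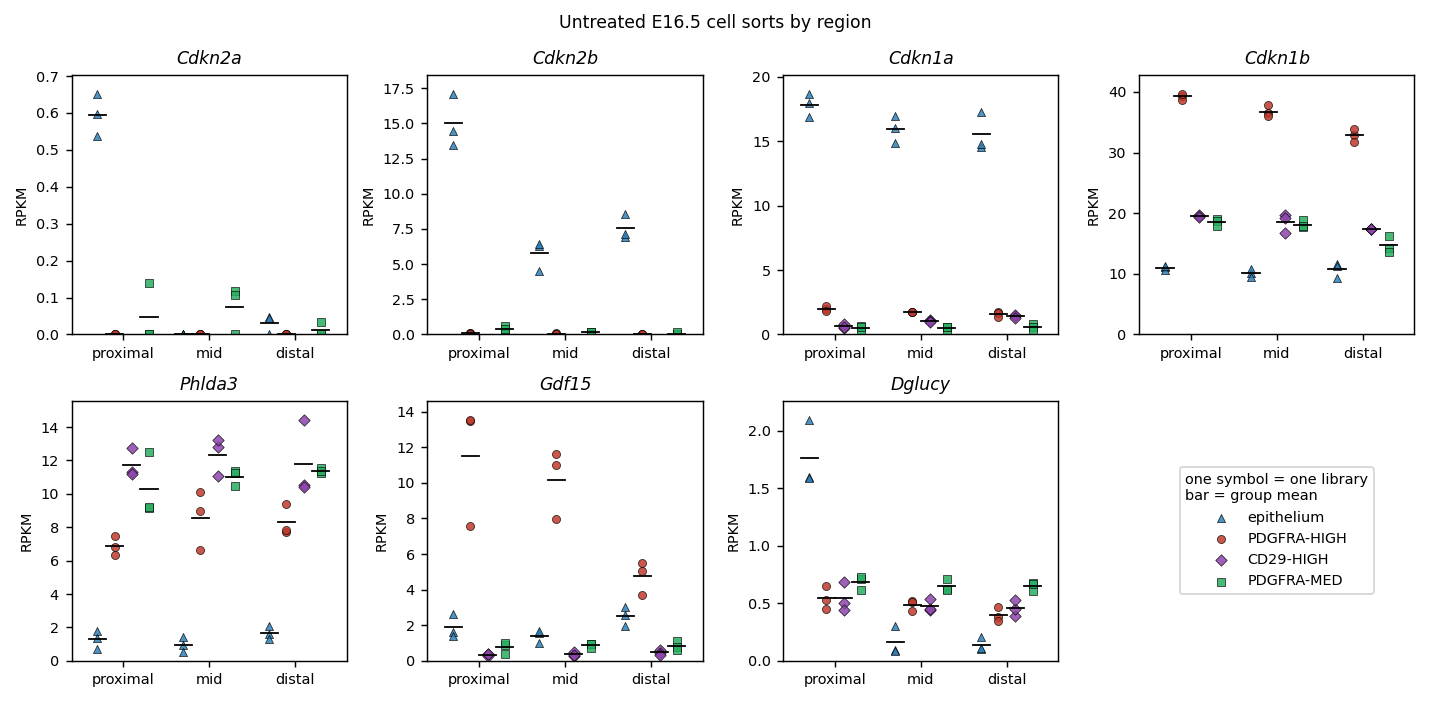
RPKM of the 7 genes (y axes, linear from 0) by region in untreated E16.5 epithelium, PDGFRA-HIGH, CD29-HIGH and PDGFRA-MED cells, one symbol per library and a bar at the mean of 3 (CD29-HIGH values come from a table normalized on its own, which lacks Cdkn2a and Cdkn2b). Cdkn2b and Cdkn1a are highest in epithelium, Cdkn1b in PDGFRA-HIGH cells and Phlda3 in CD29-HIGH and PDGFRA-MED cells, and Gdf15 stands out in PDGFRA-HIGH cells.

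Between the mesenchymal sorts, 3 of 6 members tested were higher in PDGFRA-HIGH than in PDGFRA-MED cells and 0 lower, with 26.8% of 14732 genes past the test. Gdf15 had 3.69 to 13.5 RPKM in PDGFRA-HIGH cells, against 0.362 to 1.1 RPKM in PDGFRA-MED cells (log2 2.72 ± 0.11 SE, limma adjusted p = 4.6e-14). Cdkn1a differed by 1.18 ± 0.09 (SE, limma adjusted p = 4.8e-07), and Cdkn1b by 1.07 ± 0.04 (SE, limma adjusted p = 1.0e-10), with values as above. For these 3 genes no PDGFRA-HIGH library overlapped the PDGFRA-MED libraries of the 3 regions. Phlda3 (-0.45 ± 0.11 SE), Cdkn2b (-0.28 ± 0.11 SE) and Dglucy (-0.25 ± 0.07 SE) did not pass. In the same comparison all 20 proliferation genes were lower in PDGFRA-HIGH cells (median -1.82), led by Mcm6 (-2.77), Mcm5 (-2.71), Rrm2 (-2.52) and Mki67 (-2.25), and 7 of 12 cyclin and CDK genes were lower, among them Ccnd1 (-2.20). Skp2, which marks p27 for breakdown, was lower by -1.18 and Cks1b by -0.84. Of 25 other p53 target genes 9 were higher, led by Plk2 (3.98), Trp53inp1 (2.77), Btg2 (2.28) and Bbc3 (2.15), and 2 were lower, Psrc1 (-1.33) and Pidd1 (-0.99). The list of immediate early and heat shock genes, which respond within minutes to hours to handling as well as to growth factors, had 15 of its 16 members higher in PDGFRA-HIGH cells, led by Ier3 (3.84), and its part in the levels of Gdf15 and Cdkn1a was not tested. Leaving out any 1 library changed none of the calls of Gdf15, Cdkn1a and Cdkn1b. Haemoglobin genes summed to 31.5 to 225.8 RPKM in PDGFRA-HIGH libraries, against 78.9 to 3241 RPKM in PDGFRA-MED libraries. The part of blood cells in these differences was not tested.

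Between CD29-HIGH and PDGFRA-MED cells, 0 of the 3 members tested passed, where 26.7% of 13334 genes did: Cdkn1b differed by 0.17 ± 0.04 (SE), Phlda3 by 0.18 ± 0.05 and Cdkn1a by 0.60 ± 0.11. The 95% intervals were 0.09 to 0.24, 0.08 to 0.28 and 0.39 to 0.81 in log2 units, all above 0, and only that of Cdkn1a reached past the log2 change of 0.5 that was tested. Mean Cdkn1a was 0.637, 1.04 and 1.41 RPKM in proximal, mid and distal CD29-HIGH cells, against 0.462, 0.469 and 0.571 RPKM in PDGFRA-MED cells (n = 3 each), and the groups did not overlap in the mid and distal regions. It passed under 2 of 24 alternatives, quantile normalization (limma adjusted p = 0.0068) and limma-voom on reads (limma adjusted p = 0.035), and the adjusted p reached 1 under others. Gdf15 and Dglucy were under the filter in this table and were not tested. Gdf15 was at 0.278 to 0.476 RPKM in mid CD29-HIGH cells, below its 0.706 to 0.928 RPKM in mid PDGFRA-MED cells, while the proximal and the distal libraries of these sorts overlapped. Dglucy was at 0.391 to 0.684 RPKM in CD29-HIGH and 0.593 to 0.704 RPKM in PDGFRA-MED cells.

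Along the untreated E16.5 epithelium, Dglucy was the member with a regional difference. It had 0.103, 0.203 and 0.115 RPKM in the distal epithelium, against 1.6, 1.59 and 2.09 RPKM in the proximal (log2 -1.82 ± 0.12 SE, limma adjusted p = 4.9e-08), with 5.89% of 14732 genes past the test and 1 of 6 members. The mid epithelium was like the distal, at 0.0823 to 0.303 RPKM. The distal minus proximal change of Dglucy also differed from that in PDGFRA-HIGH cells (-1.59 ± 0.17 SE, limma adjusted p = 9.3e-05) and in PDGFRA-MED cells (-1.77 ± 0.17 SE, limma adjusted p = 2.0e-05). Cdkn2b had 6.9, 7.16 and 8.54 RPKM in the distal epithelium, against 14.4, 13.5 and 17.1 RPKM in the proximal, which did not overlap and did not pass (-0.95 ± 0.19 SE, limma adjusted p = 0.18). It passed under 2 of 12 alternatives, a pseudocount of 1 and limma-voom on reads, and the adjusted p over the 12 ranged between 0.044 and 1. Cdkn2a had 0.0486, 0.0443 and 0 RPKM in the distal, against 0.597, 0.652 and 0.538 RPKM in the proximal epithelium, and 0 in all 3 mid libraries. Among the untreated E16.5 groups of this table, Cdkn2a was above 0.5 RPKM in the proximal epithelium alone. The pancreatic genes summed to between 1.23 and 1.98 RPKM in the distal and 533 to 1149 RPKM in the proximal untreated libraries. They summed to 0.468 RPKM in the proximal vehicle library, which had 1.19 RPKM of Cdkn2a, 19.9 RPKM of Cdkn2b and 1.53 RPKM of Dglucy. The distal vehicle library had 0, 5.9 and 0.0366 RPKM of these genes. With 1 vehicle library per region these values carry no test, and the part of pancreatic cells in the regional levels was not tested.

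In the mesenchymal sorts 1 member had a regional difference. Gdf15 in PDGFRA-HIGH cells had 5.47, 5.05 and 3.69 RPKM in the distal region, against 13.5, 13.5 and 7.55 RPKM in the proximal (log2 -1.17 ± 0.18 SE, limma adjusted p = 0.032), with 11, 11.6 and 7.96 RPKM in the mid region. The groups did not overlap, and replicate 3 was the lowest in each region. Of 6 members 1 passed, as did 2.46% of 14732 genes. The call depended on the fit: it was lost in 7 of 12 alternatives, among them the fit without the replicate block (limma adjusted p = 0.21) and 5 of 6 fits without 1 library, and the adjusted p over the 12 ranged between 0.00096 and 0.21. The distal minus proximal change of Gdf15 was 1.53 ± 0.26 higher in epithelium than in PDGFRA-HIGH cells (SE, limma adjusted p = 0.0076). The corresponding difference between PDGFRA-HIGH and PDGFRA-MED cells did not pass (-1.28 ± 0.26 SE, limma adjusted p = 0.17), so the regional change of Gdf15 was not shown to differ between these sorts. In PDGFRA-MED cells 0 of 6 members passed between distal and proximal (0.869% of 14732 genes), and in CD29-HIGH cells 0 of 3 did (2.26% of 13334 genes). Cdkn1a had 1.45, 1.48 and 1.3 RPKM in distal CD29-HIGH cells, against 0.516, 0.804 and 0.59 RPKM in proximal ones, without overlap and without passing (0.76 ± 0.19 SE).

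At E13.5, before villi form, the proximal epithelium already had more Cdkn2a than the distal in every library, though no member passed (0 of 5 tested, where 2.16% of 12473 genes passed). Cdkn2a had 0.116, 0.402 and 0.0594 RPKM in the distal, against 1.89, 1.13 and 1.84 RPKM in the proximal epithelium, on 14 and 116 reads (log2 -1.62 ± 0.28 SE, limma adjusted p = 0.084). It passed under 2 of 12 alternatives, limma-voom on reads (0.020) and without distal replicate 2, and the adjusted p reached 0.53. Cdkn2b had 0.852, 1.84 and 0 RPKM in the distal, against 2.96, 3.73 and 5.57 RPKM in the proximal epithelium (-1.94 ± 0.70 SE). Cdkn1a had 9.85, 8.41 and 9.12 RPKM in the distal, against 16.6, 16 and 14.3 RPKM in the proximal epithelium (-0.74 ± 0.09 SE, limma adjusted p = 0.29). Cdkn1b (10.6 to 11.2 RPKM distal, 10.7 to 11 RPKM proximal) and Phlda3 (3.95 to 4.48 RPKM distal, 3.64 to 4.74 RPKM proximal) overlapped between regions. Gdf15 and Dglucy were not among the genes of this table. Fibroblast markers (5 of 6 measured) summed to 210.1 to 367.7 RPKM in the distal and to 33.7 to 65.6 RPKM in the proximal libraries of E13.5, and pancreatic markers (2 of 4 measured) to 0.854 to 1.15 RPKM in the distal and 6.69 to 66.5 RPKM in the proximal libraries. Their part in the E13.5 differences was not tested.

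**Figure D5:**
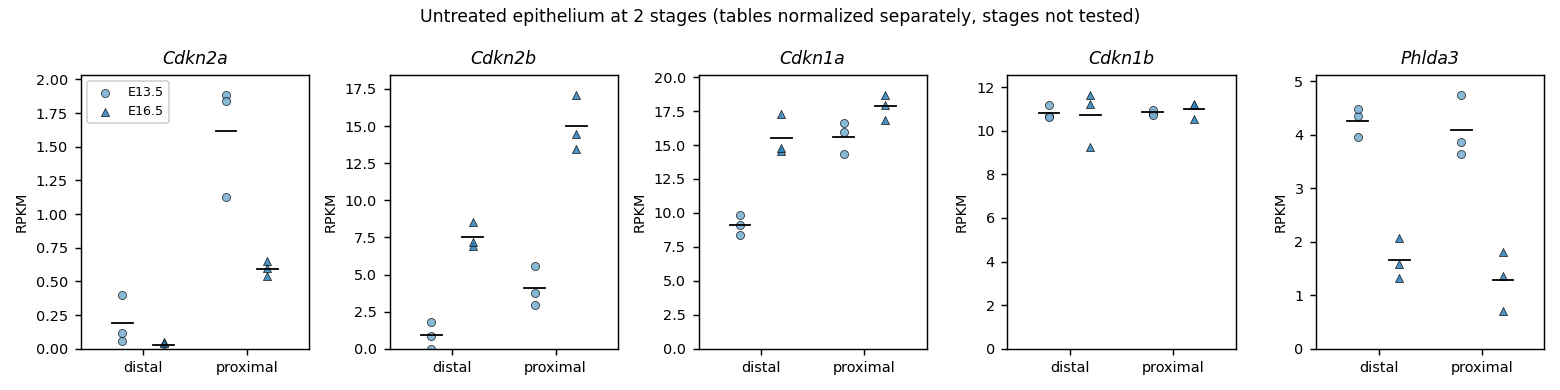
RPKM of 5 members (y axes, linear from 0) in untreated epithelium of E13.5 and E16.5, for the distal and the proximal region, one symbol per library and a bar at the mean of 3. The stages come from tables normalized separately and were not tested, but the proximal libraries lie above the distal ones for Cdkn2a and Cdkn2b at both stages.

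Across the 27 untreated libraries of epithelium and PDGFRA sorts, the genes most like each member on log2 values were Klk1, Gpx2-ps1 and Bcl2l14 for Cdkn2b (Pearson's r 0.992 each), Esrra, Ndrg1 and Diaph1 for Cdkn1a (0.993 to 0.991), Tcp11l2, Dpep2 and Tmem158 for Cdkn1b (0.989 to 0.988), Pacsin3, Palm and Ckap4 for Phlda3 (0.989 to 0.985), Hk2, Tecpr1 and Slc12a2 for Gdf15 (0.963 to 0.954) and P2rx1, Ero1lb and Capg for Dglucy (0.880 to 0.856). Between members, Cdkn2b and Cdkn1a had r = 0.921, and Cdkn1a and Phlda3 r = -0.964. The libraries of a sort share their cell type, so these likenesses describe the order of the sorts.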

How the data were processed

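The submitters' processing notes and the study's methods give alignment of the reads to mm10 with Rsubread, allowing reads with several locations, strand-specific counting with featureCounts over RefSeq gene models, and edgeR for filtering and scaling. The deposited values are RPKM, which the authors computed per table from the scaled counts. A further deposited column, the authors' mean log2 expression, was not used. Whole reads were recovered by means of the gene lengths in the deposited table, and 100% of values came out whole within 0.01 reads. Recovered totals were 15072991 to 26658039 per library, and 1 RPKM over 1 kb stood for 14.8 to 26.7 reads, which covers counting error only. Tables were tested separately, since 4 tables were normalized separately and repeat 18 library columns.

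Differences were tested with limma 3.58.1 (R 4.3.3) on log2(RPKM + 0.5) with trend and robust moderation, using treat against a log2 change of 0.5, with Benjamini-Hochberg adjustment over all genes with at least 1 RPKM in at least 3 libraries and a threshold of 0.05. The replicate number was a block, because the study's model takes it as the mother, except in the inhibitor fits. There a number does not name 1 mother across the treated and control groups. The proximal minus distal tests of LGK974 thus took same-numbered libraries as independent. In that experiment such libraries had a mean correlation of 0.212 when untreated and 0.058 with LGK974. Same-numbered libraries deviated together in part (mean correlation 0.137, over 0.1 in 59 of 108 pairs of the epithelium and PDGFRA table). No 2 libraries of a group agreed within sampling noise (51 pairs, chi-square per degree of freedom 8.33 to 62.2). The fit was tested on simulated data. Alternatives were the pseudocount, no filter, quantile normalization, limma-voom on recovered reads, the block, the choice of controls and leaving out each library. The members and gene lists were chosen with earlier results of these data known. In each comparison, the text names list genes past the threshold with the 4 largest changes on each side, genes of lists of at most 6, and genes needed to describe a result, the last chosen after their values were seen. The interaction of LGK974 with region, the vehicle-only controls and the likeness over the inhibitor libraries were added after seeing the data. Promoter sequences and positions are from RefSeq (GRCm38.p6).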

Additional observations from a re-analysis of the deposited data

Results flagged for a closer look

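Among the 4 control libraries of a region, 1 library stood apart from the other 3 in 3 of 20 gene and region groups: Cdkn2a in the proximal vehicle library (1.19 RPKM, the highest), Cdkn2b in the mid untreated library of replicate 1 (4.33 RPKM, the lowest) and Dglucy in the proximal untreated library of replicate 3 (2.02 RPKM, the highest). Chance flags about 1 in 20 such groups. The LGK974 changes of Cdkn1a had opposite signs between regions (log2 1.21 proximal, -0.75 mid and -0.60 distal), as had those of Phlda3 (2.88 proximal and -0.49 distal), with every treated library beyond every control. The differences between regions are given as descriptions with no test, since these genes were selected on this experiment.

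Effects that differed between groups by a test of the difference were the distal minus proximal change of Gdf15 between epithelium and PDGFRA-HIGH cells (log2 1.53) and that of Dglucy between epithelium and PDGFRA-HIGH (-1.59) or PDGFRA-MED cells (-1.77). The LGK974 change differed between proximal and distal epithelium for Psrc1 (3.64), Ccnd1 (2.67), Eda2r (2.18), Zmat3 (1.68), Cenpf (1.55), Ccng1 (1.54), Ccnd2 (1.39), Bbc3 (1.23) and Sesn2 (0.94), which lay higher proximally, and for Cdkn1c (-2.66), which lay higher distally.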

How the results depend on the processing

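Of 41 member values outside the inhibitor comparisons, 28 kept their direction and their side of the threshold under every alternative run, among them all 7 differences that passed between epithelium and the PDGFRA sorts or between PDGFRA-HIGH and PDGFRA-MED cells. The values that turned sign passed no test. The largest of them in size was Dglucy between PDGFRA-HIGH and PDGFRA-MED cells, at -0.25 in the main fit (95% interval -0.39 to -0.12). After quantile normalization, Dglucy was at 0.017 (log2) between PDGFRA-HIGH and PDGFRA-MED cells, 0.066 between epithelium and both sorts and 0.12 between distal and proximal PDGFRA-MED cells, and Cdkn1b at 0.0028 between distal and proximal epithelium of E16.5. With 1 library left out, distal minus proximal values spanned -0.10 to 0.060 for Cdkn1b in epithelium of E16.5, -0.035 to 0.31 for Cdkn1a and -0.019 to 0.22 for Gdf15 in PDGFRA-MED cells, -0.10 to 0.056 for Phlda3 in CD29-HIGH cells, and -0.017 to 0.0066 for Cdkn1b and -0.041 to 0.21 for Phlda3 at E13.5.

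The number of genes past the threshold between distal and proximal epithelium of E13.5 was 270, 424 with limma-voom on reads and 140 to 297 with 1 library left out (172 and 140 without proximal replicates 1 and 2, 170 and 144 without distal replicates 1 and 2). For PDGFRA-MED cells it was 128, and 86 to 261 with 1 library left out (261 without proximal replicate 2). For LGK974 in the proximal epithelium it was 281, 530 with untreated controls alone, 109 with the vehicle library alone, an alternative chosen after seeing the data, and 173 to 439 with 1 library left out (439 without the vehicle library, 173 without LGK974 replicate 3). Against vehicle over the 3 regions it was 414, and 122 to 1533 with 1 library left out: 1533 without the proximal, 122 without the mid and 142 without the distal vehicle library, 247 without proximal LGK974 replicate 3, and 252, 265 and 249 without distal LGK974 replicates 1, 2 and 3. Where a group then held 1 library, that library was assumed to vary like the others. The cause of these shifts was not tested.

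Without the replicate block, 3831 genes passed between PDGFRA-HIGH and PDGFRA-MED cells and 315 between distal and proximal PDGFRA-HIGH cells, against 3947 and 363 with it, and among the members the block changed only the call of Gdf15 between distal and proximal PDGFRA-HIGH cells (limma adjusted p = 0.21 without it). With the block added, LGK974 changed 336, 1003 and 1910 genes in the proximal, mid and distal epithelium. With few reads, as for Cdkn2a outside the proximal LGK974 libraries, depth limits what can be seen, and single vehicle libraries give no spread of their own.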
